A study of Mus musculus with 8 samples.

Results

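The genes described here code for the Groucho/TLE corepressors, namely *Aes*, *Tle1*, *Tle2*, *Tle3*, *Tle4* and *Tle6*, 6 of the 22206 probe sets on the array. They were found by their symbols, and each had a single row. *Aes* is the older symbol of *Tle5*. The family was picked by measured values, because *Aes* had been called higher after MYTHO knockdown in these same arrays, while the other 5 were added by name.

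Each Clariom S array held RNA from 1 gastrocnemius (GAS), a calf muscle. The mice were C57/Bl6j males, 14 weeks old by the labels. A serotype 1 adeno-associated virus (AAV) was injected into the muscle at about 10 weeks of age, and muscles were taken 3 weeks later. The AAV sh-RNA MYTHO group (4 arrays) received a short hairpin RNA against *Mytho*, listed as D230025D16Rik. The AAV sh-RNA scrmb group (4 arrays) received a scrambled hairpin in the opposite leg of the same animals, so both legs carried a virus and a U6-driven hairpin. The 4 animals are referred to as A, B, C and D, and values are given in this order. U6 is active in all cell types, and whole muscle was used, so fewer cells of a type and less RNA per cell cannot be told apart.

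Groucho/TLE proteins do not bind DNA themselves. Full-length members form tetramers through an N-terminal glutamine-rich domain, and their C-terminal WD40 propeller docks onto short peptide motifs of DNA-binding factors. They repress target genes together with histone deacetylases, for example in the Wnt pathway, where they sit on TCF/LEF factors until β-catenin displaces them, and in the Notch pathway, where HES factors recruit them. The *Aes* product is a short member with the N-terminal domain but without the WD40 propeller, and it is known as a modulator or antagonist of the full-length proteins.

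The targeted gene was low in each knocked-down muscle. The log2 signal of D230025D16Rik read 11.35, 11.31, 10.78 and 11.05 after the scrambled hairpin and 8.16, 8.20, 8.80 and 8.08 after the MYTHO hairpin, which leaves 14.2% of the scrmb signal (limma adjusted p = 0.00044). Array medians lay between 6.39 and 6.47. The 9 markers of fast skeletal muscle, among them *Acta1*, *Ckm* and *Myh4*, had means of 19.49 to 19.59 on all arrays, close to the ceiling of 19.93.

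*Aes* was higher in every MYTHO muscle than in any scrmb muscle. In scrmb muscle its log2 signal read 16.42, 16.47, 16.43 and 17.04. In MYTHO muscle it read 18.00, 18.38, 18.29 and 17.89. The 3 scrmb arrays of animals A to C lay within 0.05 of each other, the scrmb array of animal D lay above them, and the groups did not overlap. On average *Aes* was at 16.59 ± 0.30 (SD, n = 4) in scrmb and at 18.14 ± 0.23 (SD, n = 4) in MYTHO. The difference was 1.55 on the log2 scale with a standard error of 0.20, a 2.93-fold higher signal and the 9th highest change on the array. All of its values stayed below the ceiling of the array.

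The difference between the legs of each animal, on the log2 scale, was 1.58 in A, 1.91 in B, 1.86 in C and 0.85 in D. Animal D had both the highest scrmb signal and the lowest MYTHO signal of *Aes*. Since *Aes* was chosen on this contrast, these values describe it and test nothing. The value that chose it was a limma adjusted p of 0.0373, in a fit in which 0.027% of all probe sets were called. With animal as a block this became 0.156, and the 14 alternatives gave adjusted p-values between 0.000245 and 0.218. With 1 array left out, *Aes* was called without scrmb D, at 0.0191, and not without any of the other 7. The size of the change varied less, from 1.47 to 1.70 without single arrays.

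**Figure D1:**
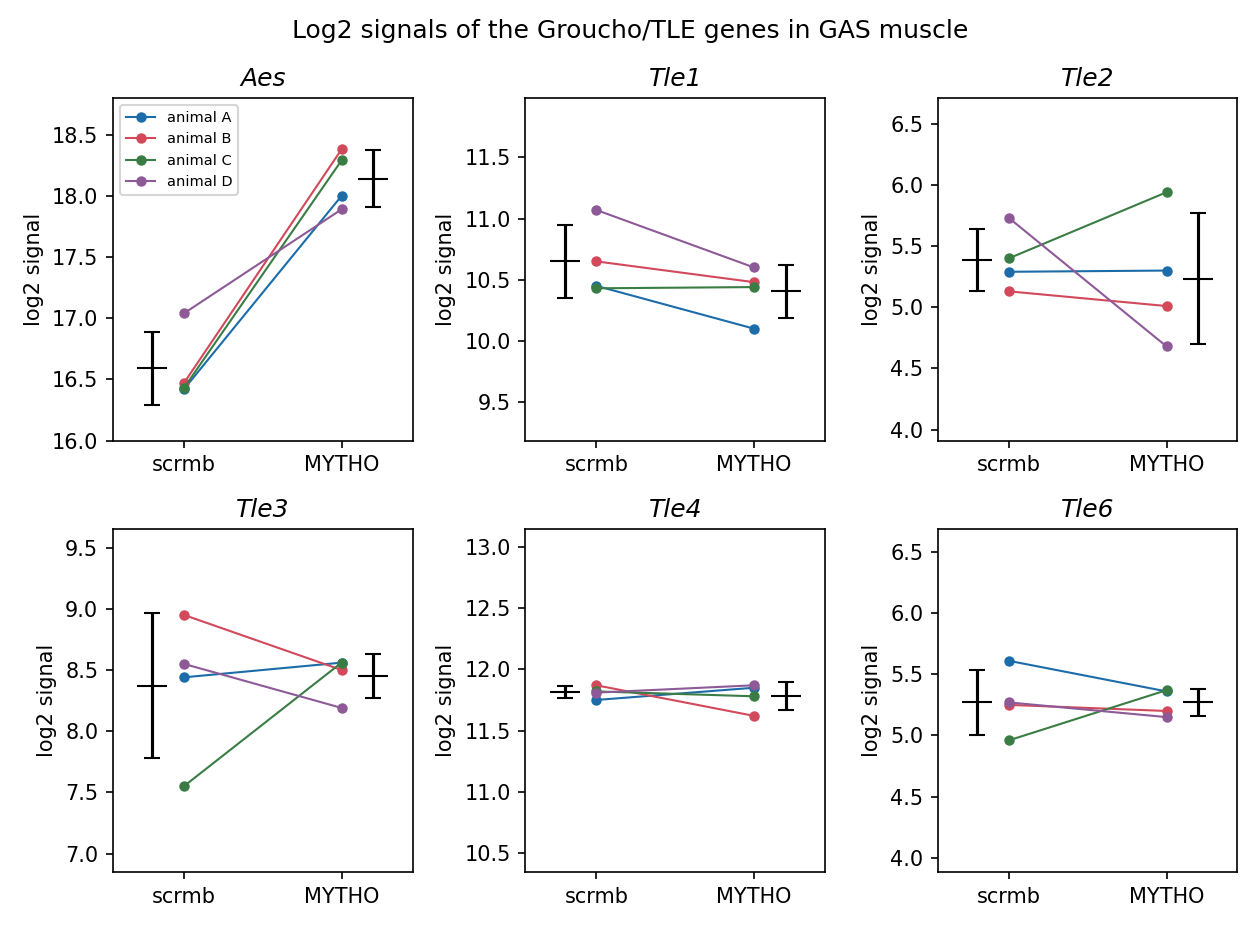
Log2 signal (y axis, the same span of 2.8 in each panel) of the 6 genes in the scrmb and MYTHO muscle of each animal, with lines joining the legs of 1 animal and black bars for mean and SD of 4 arrays. The MYTHO values of *Aes*, which was chosen on this contrast, all lie above its scrmb values, whereas the groups overlap for the 5 *Tle* genes.

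The differences of the 5 *Tle* genes lay between -0.25 and 0.08. None of the 5 *Tle* genes had a limma adjusted p or an unadjusted p under 0.05, and none had groups that did not overlap, which was the case for 6.46% of all probe sets. At an unadjusted p under 0.05, 4.81% of all probe sets were higher and 7.58% lower, so none of 5 is near the background and is not a result about these genes. Their median difference was -0.03 on the log2 scale, against -0.005 over all probe sets. Their adjusted p ran from 0.676 to 0.998, and from 0.627 upwards with animal as a block. A p above the threshold does not show that a gene stayed the same, and the 95% intervals below bound what could have changed.

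*Tle1*, a full-length corepressor known from Wnt, Notch and NF-κB signalling, had log2 signals of 10.45, 10.65, 10.43 and 11.07 in scrmb and 10.10, 10.48, 10.44 and 10.60 in MYTHO. It was lower in 3 of 4 animals, the largest difference being in animal D. The difference was -0.25 with an interval from -0.68 to 0.19 (limma adjusted p = 0.676), and became -0.105 without the scrmb array of animal D and -0.143 without the MYTHO array of animal A.

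*Tle3*, a full-length member also known as a coregulator in fat cell differentiation, had log2 signals of 8.44, 8.95, 7.55 and 8.55 in scrmb and 8.56, 8.50, 8.56 and 8.19 in MYTHO. The scrmb array of animal C lay lowest of all, and the gene was higher in 2 of 4 animals. Its difference of 0.08 had an interval from -0.50 to 0.66 and became -0.19 without that array.

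*Tle4*, the remaining full-length member outside chromosome 10, was the steadiest of the family. Its log2 signals were 11.75, 11.87, 11.82 and 11.81 in scrmb and 11.85, 11.62, 11.78 and 11.87 in MYTHO. The pooled SD within groups was 0.087, and 0.513% of all probe sets had a smaller one. Its difference was -0.03 with an interval from -0.38 to 0.31.

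*Tle2*, a full-length member, and *Tle6*, a divergent member known for its role in the egg and early embryo, had lower signals. *Tle2* was at 5.29, 5.13, 5.40 and 5.73 in scrmb and at 5.30, 5.01, 5.94 and 4.68 in MYTHO, with differences in both directions, of 0.54 in animal C and -1.05 in animal D. *Tle6* was at 5.61, 5.25, 4.96 and 5.27 in scrmb and at 5.36, 5.20, 5.37 and 5.15 in MYTHO. The intervals of the difference ran from -0.72 to 0.41 for *Tle2* and from -0.40 to 0.40 for *Tle6*. The mean signals lay at or above those of 29.0% and 28.1% of all probe sets. The table gives no detection call, so a transcript below what the array can measure would look the same.

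Over the 5 *Tle* genes, the lowest bound of these intervals was -0.72, that of *Tle2*, and the highest was 0.66, that of *Tle3*. The within-group deviations of the members gave no common pattern. Over the 8 arrays with group means subtracted, the correlation of *Aes* was 0.66 with *Tle1*, 0.56 with *Tle2*, 0.30 with *Tle3*, 0.03 with *Tle6* and -0.49 with *Tle4*. These arrays share animals and normalization, and the values are given as a description.

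In the RefSeq annotation of GRCm38.p6, the assembly equivalent to the mm10 build of the files, *Aes* (Entrez gene 14797) lies on chromosome 10 from 81559444 to 81566371. *Tle2* lies next to it, from 81574739 to 81592581, with 8367 bases between them. *Tle6*, from 81590904 to 81601185, overlaps *Tle2* by 1678 bases on the opposite strand, so 3 of the 6 genes fall within 41742 bases. *Tle1* lies on chromosome 4 from 72109945 to 72200989, *Tle3* on chromosome 9 from 61372326 to 61418497, and *Tle4* on chromosome 19 from 14448072 to 14598183. The files do not place the probes, so signals from the stretch that *Tle2* and *Tle6* share could not be assigned.

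Differences of the genes around *Aes* were between -0.28 and 0.28. Among the 5 nearest measured genes on each side, none of 10 had a limma adjusted p or an unadjusted p under 0.05, and their median difference was -0.01. Of all probe sets, 4.81% were higher and 7.58% lower at an unadjusted p under 0.05, so none of 10 is near this background and is not a result about the neighbourhood. On the side of lower coordinates, *Gna11*, a G protein subunit 14281 bases away, differed by 0.005 (limma adjusted p = 0.997). *Gna15*, *S1pr4*, *Ncln* and *Celf5* differed by 0.14, -0.28, 0.28 and -0.02. On the other side, beyond *Tle2* and *Tle6*, BC025920, the deacetylase gene *Sirt6* and *Ankrd24* differed by 0.22, -0.02 and -0.10. All 10 had groups that overlapped, as did all but 6.46% of probe sets.

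**Figure D2:**
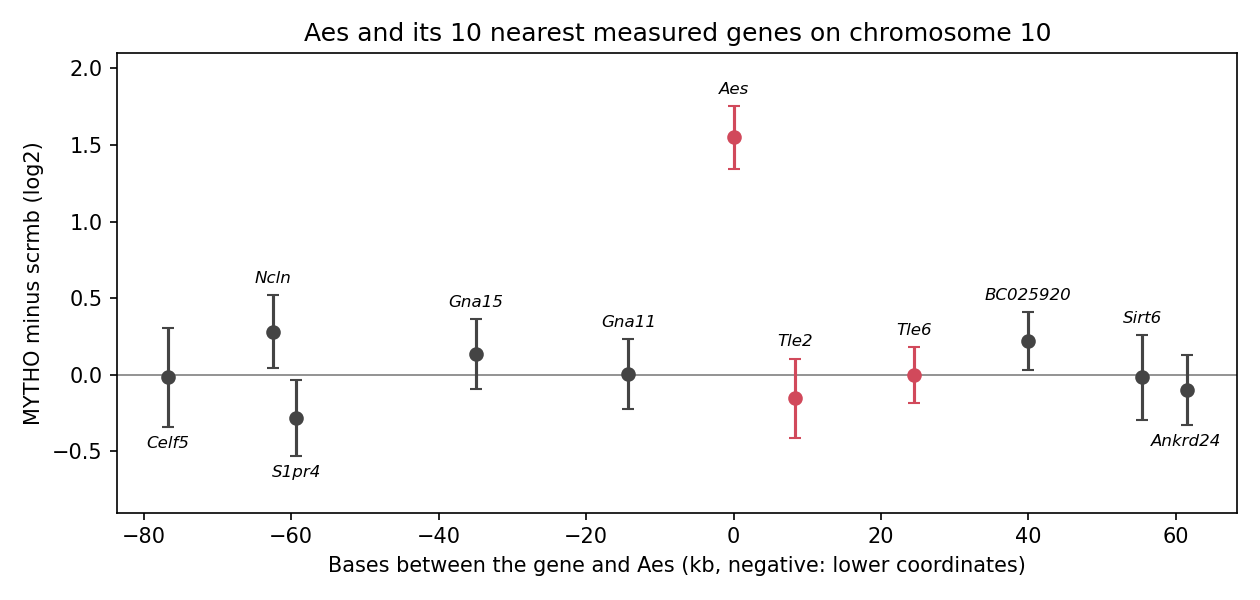
MYTHO minus scrmb on the log2 scale (y axis, bars show the standard error) for *Aes* and its 10 nearest measured genes, placed by the bases between each gene and *Aes* (x axis, kb). Groucho/TLE genes are in red. *Aes*, chosen on this contrast, is at 1.55, and the others run from -0.28 to 0.28.

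To show what the promoters of the family share, windows of 300 bases, from 250 before to 50 after an annotated start, were taken from RefSeq (GRCm38.p6). There were 7 windows for 5 of the 6 genes, all but *Aes*. The starts used lie inside the outermost gene limits given above by 96 bases for *Tle1*, 548 for *Tle2*, 40 for *Tle3*, 0 and 970 for *Tle4*, and 285 and 3818 for *Tle6*. The windows of *Tle2* and *Tle6* and the second one of *Tle4* therefore lie wholly within the gene. The palindrome CACGTG, the E-box read by basic helix-loop-helix factors such as MYC and USF1, was in 1 window each of *Tle3*, *Tle4* and *Tle6*, and in 7.15% of all 32851 windows. It was noticed when the windows were read. The stretches that hold it are shown 5′ to 3′ on the strand of the gene, with the E-box in capitals, because they are the letters these 3 genes have in common. They have 30 bases on each side for *Tle3*, at chr9:61372268-61372333 on the plus strand, and for *Tle4*, at chr19:14598358-14598423 on the minus strand. For *Tle6*, where both copies lie within the gene limits, they have 12 bases on each side, at chr10:81601066-81601095 and chr10:81601002-81601031 on the minus strand.
Tle3: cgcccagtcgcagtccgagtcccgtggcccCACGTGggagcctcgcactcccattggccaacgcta
Tle4: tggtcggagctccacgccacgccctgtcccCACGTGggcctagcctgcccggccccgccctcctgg
Tle6, first copy: tggctcgcagccCACGTGggctcgccgcct
Tle6, second copy: gagtccggggccCACGTGcaccgtggcctg

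In each of the 3 genes the first E-box is preceded by cc and followed by gg, whereas the second copy in *Tle6* is followed by ca. These flanks were seen on reading the sequences, and their share over all windows was not counted. Of the letters bound by factors that recruit Groucho, searched on both strands, the TCF/LEF core CTTTGA and the RUNX core TGTGGT were in none of the 7 windows, against 16% and 16.8% of all windows. The HES N-box CACNAG was in 2 of 7, those of *Tle2* and *Tle3*, against 42.5%. A match or its absence describes only these letters. The 3 genes with the E-box had differences of 0.08, -0.03 and -0.002.

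The factors through which Groucho works, and the genes downstream, were read from 5 lists. Of their 60 genes, none had a limma adjusted p under 0.05, the lowest being 0.238. At an unadjusted p under 0.05, 4 were higher and 1 was lower, which is 6.67% and 1.67%, against 4.81% and 7.58% of all probe sets in these directions. These shares are near the background and are not read as a result about the lists. With animal as a block 3 were higher and 1 was lower, against 4.94% and 7.66%. The median difference of the 60 genes was 0.05 on the log2 scale.

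Among 23 DNA-binding factors that recruit Groucho, 3 were higher at an unadjusted p under 0.05 and none was lower, which is 13% and 0% against 4.81% and 7.58% of all probe sets. With animal as a block 2 were higher, and the median difference of the list was 0.10. The 3 were *Hes1*, *Hes2* and *Hes7*, which code for HES repressors, and nothing about the HES genes as a group was tested. *Hes7* had log2 signals of 6.38, 6.21, 5.79 and 6.40 in scrmb and 6.42, 6.82, 7.26 and 6.87 in MYTHO, and the groups did not overlap. Its difference was 0.65, higher in 4 of 4 animals, with a limma adjusted p of 0.265. *Hes2* was at 4.16, 4.44, 4.69 and 5.54 in scrmb and at 5.28, 5.45, 5.82 and 5.43 in MYTHO, where animal D did not follow, and its difference was 0.79 (limma adjusted p = 0.273). The mean signal of *Hes2* lay at or above those of only 24.3% of all probe sets, and there is no detection call.

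*Hes1*, which is also a direct Notch target, was at 6.05, 6.08, 5.98 and 5.89 in scrmb and at 6.51, 6.35, 6.30 and 6.31 in MYTHO. Its groups did not overlap, the difference was 0.37 (limma adjusted p = 0.378), and with animal as a block the unadjusted p was no longer under 0.05, at 0.0648. The other HES genes, *Hes3*, *Hes5* and *Hes6*, differed by 0.11, 0.22 and 0.34. The TCF/LEF genes *Tcf7*, *Tcf7l1*, *Tcf7l2* and *Lef1* differed by -0.07, 0.065, -0.30 and -0.51, and *Runx1*, *Runx2* and *Runx3* by 0.345, 0.025 and -0.06, with unadjusted p above 0.05 in each case.

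None of the 11 cofactors and modifiers had an unadjusted p under 0.05. The histone deacetylase genes *Hdac1*, *Hdac2* and *Hdac3* differed by -0.05, -0.19 and -0.30, and *Xiap* and *Usp47*, which code for a ubiquitin ligase and a deubiquitinase that act on TLE proteins, by -0.16 and -0.015. Of 8 genes on the β-catenin co-activator side, *Ctnnb1*, which codes for β-catenin, was the only one past an unadjusted p of 0.05, and 1 of 8 is near the 7.58% of all probe sets that were lower at that p. It was at 12.71, 12.83, 12.62 and 12.61 in scrmb and at 12.60, 12.20, 12.06 and 12.19 in MYTHO, lower in 4 of 4 animals by a mean of -0.43 (limma adjusted p = 0.356). Its probe set also names a microRNA gene.

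The Wnt targets had a median difference of 0.26 on the log2 scale, with 9 of 12 above 0, beside a median of -0.005 and 10870 of 22206 above 0 over all probe sets. An unadjusted p under 0.05 was reached by 1 of 12, or 8.33%, against 4.81% of all probe sets higher at that p. This was *Ccnd1*, cyclin D1, at 7.56, 7.21, 7.55 and 7.53 in scrmb and at 8.17, 7.64, 8.42 and 8.14 in MYTHO, a difference of 0.63 (limma adjusted p = 0.238). Its groups did not overlap, and its probe set names a microRNA gene too. *Axin2*, the negative feedback gene of the Wnt pathway, differed by 0.42 and *Lgr5* by 0.24, whereas *Rnf43*, *Wif1* and *Sp5* differed by -0.28, -0.37 and -0.14, all with unadjusted p above 0.05. Of 8 Notch targets, *Hes1* was the only one past an unadjusted p of 0.05, or 12.5% against 4.81% of all probe sets, and with animal as a block none of the 8 was. *Hey1*, *Heyl* and *Notch3* differed by 0.145, 0.34 and 0.33, and *Nrarp* by -0.30.

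**Figure D3:**
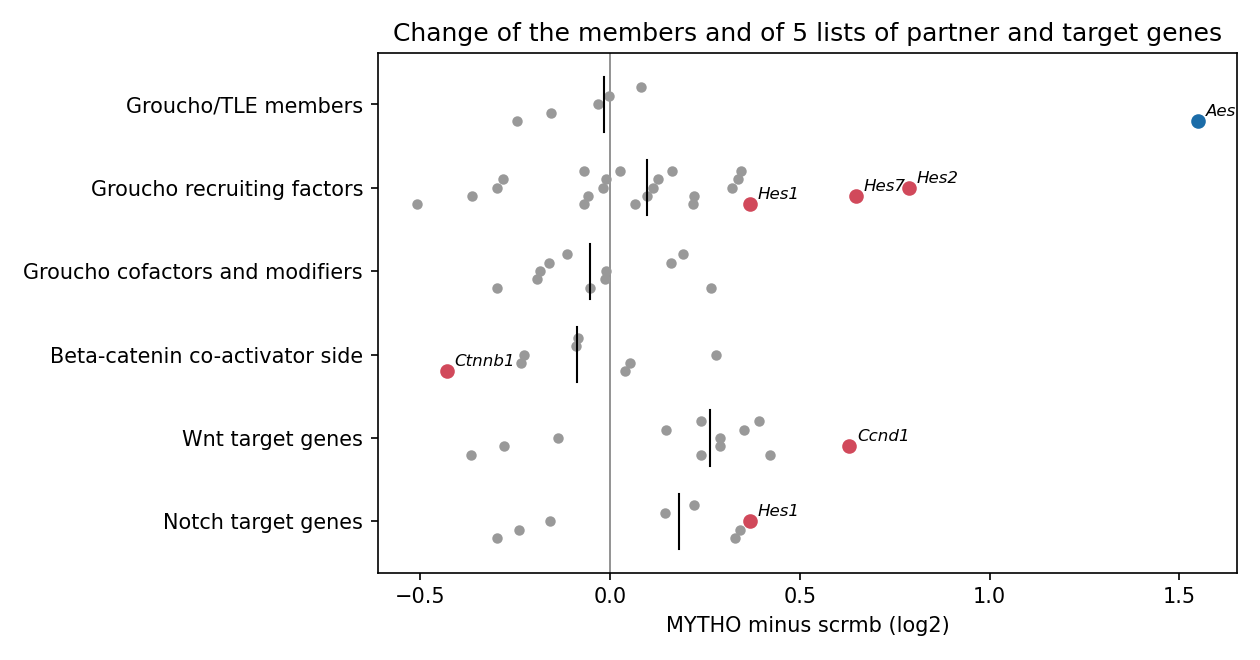
MYTHO minus scrmb on the log2 scale (x axis) for the 6 members and the 5 lists of partner and target genes (rows), with 1 point per gene and a black line at the median, which for the members includes *Aes*. Coloured and named points have an unadjusted p under 0.05, with *Aes*, chosen on this contrast, in blue at 1.55. The remaining named genes lie between -0.43 and 0.79.

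The genes whose signal followed *Aes* most closely were sought among 10526 probe sets that name a single gene, lie above the median signal and stay below the ceiling. Over the 8 arrays the highest Pearson correlations with *Aes* were 0.995 for *Pde2a*, a cyclic nucleotide phosphodiesterase, 0.969 for *Mrpl42*, a mitochondrial ribosomal protein, 0.965 for *Babam1*, a subunit of BRCA1-linked deubiquitinase complexes, 0.964 for *Rps6kb2*, a ribosomal S6 kinase, and 0.962 for *Ly6c2*, a surface protein. These correlations include the group difference. *Pde2a* was at 8.71, 8.72, 8.73 and 8.89 in scrmb and at 9.18, 9.29, 9.33 and 9.12 in MYTHO, so that it shared the high scrmb array of animal D, with a difference of 0.47 (limma adjusted p = 0.266).

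With the group means subtracted, the highest correlations were 0.976 for *Cs*, the citrate synthase of the TCA cycle, 0.971 for *Flot2*, a lipid raft scaffold, 0.961 for *Babam1*, 0.954 for *Pde2a* and 0.951 for *Fhl3*, a LIM-domain protein of muscle. *Babam1* and *Pde2a* are on both lists, which were drawn from the same arrays and so are not independent. As the highest of 10526 candidates, these correlations are high by choice, and whether they exceed chance was not tested. *Flot2* was at 10.63 in scrmb of animal D, against 9.99 to 10.02 in the other scrmb arrays, while its group difference was 0.18. The 8 arrays share 4 animals, and the values describe these arrays only.

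**Figure D4:**
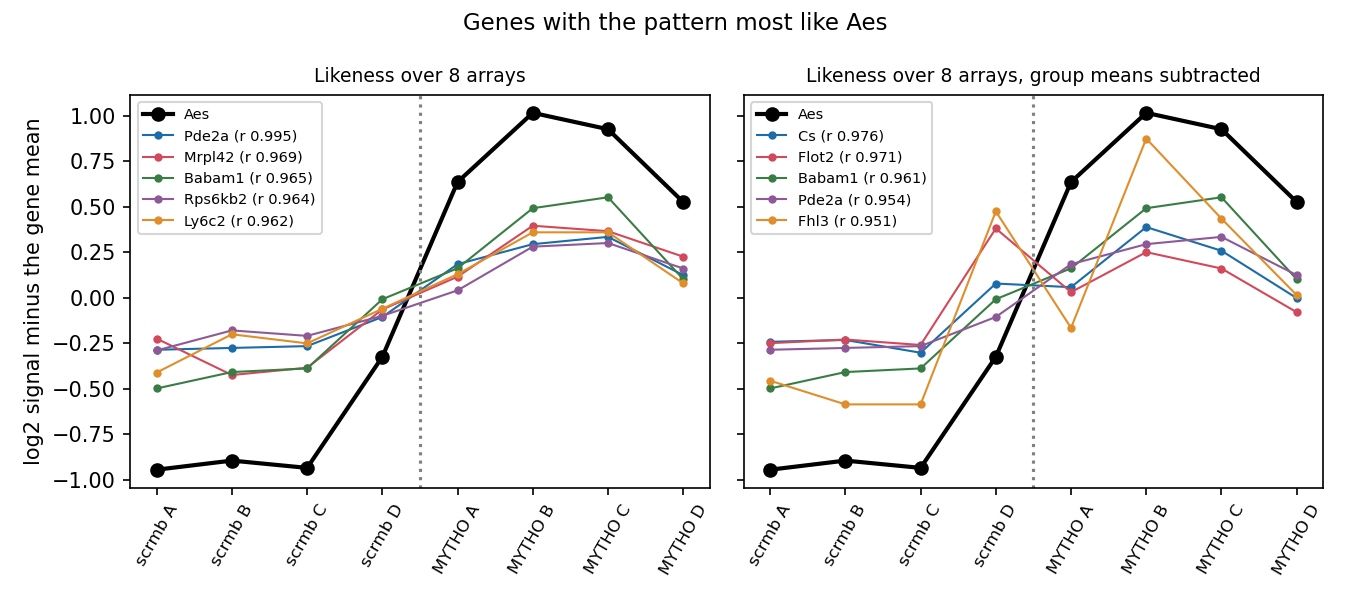
Log2 signal minus the mean of the gene (y axis) on the 8 arrays (x axis, without order within a group) for *Aes* in black and the 5 genes most like it, with likeness taken over all arrays on the left and after subtracting group means on the right. In both panels *Aes* has a wider range than each of these genes, and the scrmb array of animal D is raised.

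Some markers of slow fibres and of other cells had an unadjusted p under 0.05, but no marker of any list had a limma adjusted p under 0.05. Of 9 slow-fibre markers, 8 were higher at an unadjusted p under 0.05, against 4.81% of all probe sets. Their summed log2 signal ran from 15.48 to 17.63 in scrmb and from 15.75 to 18.72 in MYTHO. None of the 9 had a limma adjusted p under 0.05. Between the legs, their mean differed by 1.05, 2.41, 2.73 and 0.12 in animals A to D, where *Aes* differed by 1.58, 1.91, 1.86 and 0.85. Both differences were smallest in animal D. Among scrmb arrays the slow-fibre mean was lowest in animal D, at 11.17, where *Aes* was highest, at 17.04. Among MYTHO arrays both were lowest in animal D, at 11.30 and 17.89.

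Of 6 endothelial markers, 2 (*Pecam1* and *Tek*) were higher at an unadjusted p under 0.05, against the same 4.81%. The summed log2 signal ran from 13.42 to 13.79 in scrmb and from 13.95 to 14.08 in MYTHO, and is carried mostly by *Cdh5* and *Kdr*, which differed by 0.22 and 0.49 with unadjusted p above 0.05. Of 5 fibroblast markers 1, *Dcn*, was lower at that p, against 7.58% of all probe sets, with sums from 17.65 to 18.08 in scrmb and from 17.04 to 17.64 in MYTHO. The sum is nearly that of *Dcn* alone, whereas the mean of the 5 log2 signals overlapped, at 10.78 to 10.96 in scrmb and 10.54 to 11.18 in MYTHO, and the list had a median difference of -0.22. *Pdgfra* and *Col1a1* differed by -0.22 and -0.30, *Lum* by 0.255 and *Col3a1* by 0.42. The leg differences of *Col3a1* were 1.89, 0.01, -0.06 and -0.15 in animals A to D, so its mean difference rests on animal A. Of 5 satellite cell markers 1, *Cdh15*, was higher, against 4.81% of all probe sets, with sums from 8.18 to 8.74 in scrmb and from 8.42 to 8.83 in MYTHO. No marker of macrophages (6), T cells (5), adipocytes (5), Schwann cells (5) or blood (4 probe sets) had an unadjusted p under 0.05. The part of these cells in the *Aes* difference was not tested.

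**Figure D5:**
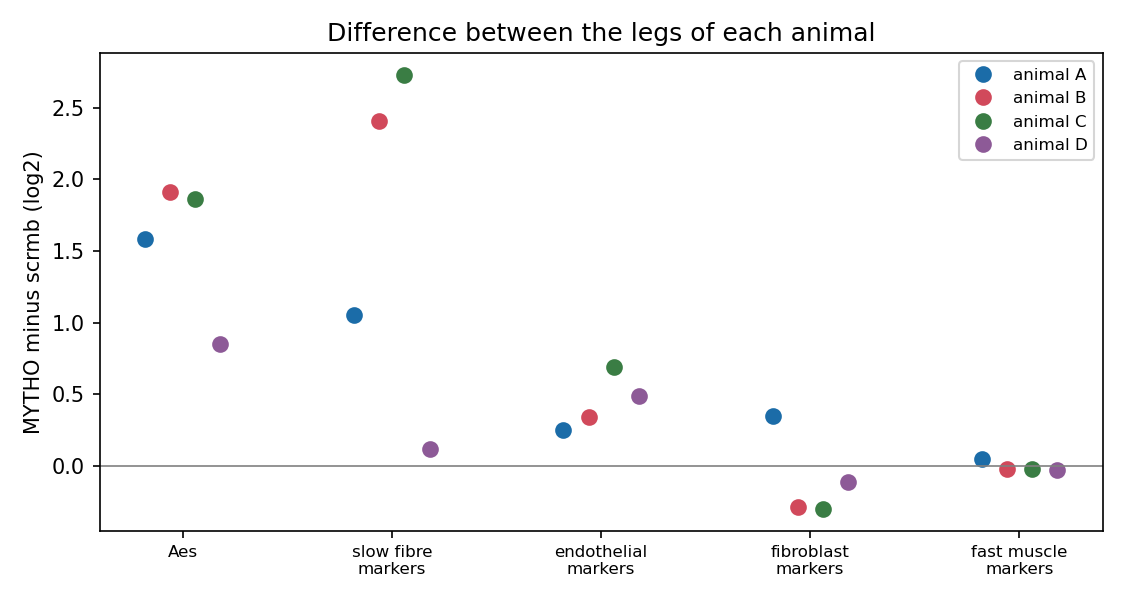
MYTHO minus scrmb on the log2 scale (y axis) between the legs of animals A to D for *Aes* and for the mean of 4 marker lists (x axis). *Aes* lies between 0.85 and 1.91, the slow-fibre markers between 0.12 and 2.73, the endothelial markers between 0.25 and 0.69, the fibroblast markers between -0.30 and 0.35, and the fast markers, of which 3 of 9 were at the ceiling on all arrays, between -0.03 and 0.05.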

How the data were processed

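Total RNA was isolated with Trizol from GAS muscle and hybridised to Clariom S Mouse arrays. The authors deposited log2 signals from the Transcriptome Analysis Console 4.0.1 with default settings, SST-RMA at gene level (background correction, quantile normalization across arrays, median polish), on annotation release 36 and mm10. The authors' group averages, fold changes and p-values were in the same table and were not used. The number of arrays, 4 per group, limits the precision.

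MYTHO and scrmb were compared with limma 3.58.1 in R 4.3.3 (lmFit, eBayes, no block, as the array methods name no pairing term, although the study used paired tests for other comparisons of related groups), two-sided, with Benjamini-Hochberg adjustment over all 22206 probe sets and a threshold of 0.05. The fit was tested on simulated data. Intervals are 95% intervals of that fit. A gene with several rows was to be represented by the row of highest mean. The animal number in the column names was found in both groups for each of the 4 mice, and the study injected the scrambled virus contralaterally, so an animal block was an alternative. Deviations of the legs of 1 animal correlated at 0.003, -0.001, 0.135 and 0.087 across probe sets in A to D. The other alternatives were quantile normalization, median centring, the upper 75% of probe sets, no saturated probe sets, eBayes with trend and robust, and leaving out each array.

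The members and lists were chosen with earlier results of these data known. Named were the 6 members, the targeted gene, list genes with an unadjusted p under 0.05, 10 neighbours of *Aes* and the 5 genes most like *Aes* by each of 2 correlations, and further list genes were named, after their values were seen, to describe each list. Markers were fixed in 10 lists. Genes were placed with RefSeq tables of GRCm38.p6.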

Additional observations from a re-analysis of the deposited data

Results flagged for a closer look

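In 212 groups of 4 arrays, 25 had an array far from the other 3, where chance gives about 1 in 20. They covered the members, the targeted gene, the 8 other neighbours of *Aes*, the 60 list genes, the 8 genes most like *Aes*, 13 named marker genes and the 10 marker means. *Aes* was at 17.04 in scrmb of animal D, against 16.42 to 16.47 in the others. *Tle3* was at 8.19 in MYTHO of animal D, against 8.50 to 8.56. D230025D16Rik was at 8.80 in MYTHO of animal C, against 8.08 to 8.20.

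Of the genes most like *Aes*, 3 stood apart in the same array, scrmb of animal D, which their choice by likeness favours. *Pde2a* was at 8.89 there against 8.71 to 8.73, *Flot2* at 10.63 against 9.99 to 10.02, and *Fhl3* at 13.58 against 12.52 to 12.65.

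Among the list genes, the scrmb array of animal A stood apart for *Hes3*, at 6.53 against 7.26 to 7.39, for *Hhex*, at 5.65 against 4.69 to 4.83, and for *Ep300*, at 11.49 against 11.23 to 11.27. *Ccnd1* was at 7.21 in scrmb of animal B, against 7.53 to 7.56. *Csnk2b* was at 12.25 in scrmb of animal C, against 13.06 to 13.19, and *Apcdd1* at 4.51 in scrmb of animal D, against 5.62 to 5.69. The MYTHO array of animal B stood apart for *En1*, at 6.92 against 7.31 to 7.38, for *Xiap*, at 9.87 against 9.57 to 9.61, for *Axin2*, at 7.34 against 6.41 to 6.52, and for *Myc*, at 9.13 against 7.63 to 7.74. The MYTHO array of animal D did so for *Hes6*, at 4.84 against 4.10 to 4.14, and for *Hey2*, at 5.24 against 5.97 to 5.99.

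Of the markers, *Pecam1* was at 10.48 in MYTHO of animal A, against 10.29 in each of the others, and *Col3a1* at 11.35 there, against 9.61 to 9.72. The scrmb array of animal C stood apart for *Cdh5*, at 12.80 against 13.04 to 13.06, and for *Kdr*, at 10.77 against 11.42 to 11.47. The mean of the fast muscle markers was 19.59 in scrmb of animal D, against 19.50 to 19.51. The mean of the slow-fibre markers was 11.30 in MYTHO of animal D, against 13.87 to 14.25. The mean of the endothelial markers was 10.38 in MYTHO of animal B, against 10.25 to 10.27.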

How the results depend on the processing

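The *Aes* difference of 1.55 ran from 1.47 to 1.70 over 14 alternatives, and the *Mytho* knockdown from -2.98 to -2.74 with its call kept (limma adjusted p from 5.04e-06 to 0.0156). None of the 5 *Tle* genes, 60 list genes or 10 neighbours was called after adjustment under any of the alternatives run, the replicate block by animal included. Signs reversed only in differences that were never called. *Tle4* became 0.003 after quantile normalization and 0.008 after median centring, and *Tle6* 0.044 and 0.038. Without single arrays the difference ran from -0.318 to -0.105 for *Tle1*, from -0.39 to 0.029 for *Tle2*, from -0.194 to 0.272 for *Tle3*, from -0.062 to 0.021 for *Tle4* and from -0.107 to 0.11 for *Tle6*.

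All probe sets called after adjustment were 2 higher and 4 lower. They became 5 and 39 after median centring, 5 and 55 without saturated probe sets, 30 and 130 with trend and robust, 58 and 277 by the 2-fold limit of the methods joined to an unadjusted p, and 1 and 1 with the replicate block. Without scrmb D they were 14 and 140, and without any other array 0 and 1. At an unadjusted p under 0.05, the list genes were 4 higher and 1 lower. The higher count ran from 3 to 5 over the 14 alternatives and was 3 in most of them. The lower count was 0 after median centring and ran from 0 to 2 without single arrays, being 0 without scrmb A, scrmb B or MYTHO B and 2 without scrmb C or MYTHO C. The block changed no call of a member or neighbour other than that of *Aes*, given above. The cause was not tested. The planned mean over several rows of a gene was not run, because each member had 1 row.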
